A study of Homo sapiens with 6 samples.

Results

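The genes that carry acetyl groups into fatty acids, lengthen and desaturate those fatty acids, join them to glycerol and store them as triglyceride were read out of RNA-seq counts from 6 libraries. The set was a list of 42 gene symbols, chosen by name for their place in the pathway, with earlier results of these data known. All 42 were among the 16779 genes in the deposited tables. Of these, 39 passed the filter on low counts and were tested. The other 3, THRSP, ELOVL3 and ACSL6, had at most 7 counts in any library and are given as counts only.

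Fatty acid synthesis starts with citrate, which is cleaved to acetyl-CoA in the cytosol; acetyl-CoA is carboxylated to malonyl-CoA, and fatty acid synthase builds palmitate from these units. Elongases and desaturases turn palmitate and dietary fatty acids into longer and less saturated chains, acyl-CoA synthetases activate them, and acyltransferases and lipins assemble triglyceride on glycerol 3-phosphate, to be stored in droplets coated by perilipins. Much of the pathway is transcribed under SREBP-1 and ChREBP, which respond to insulin, sterols and sugars, and lung alveolar type II cells, from which the studied line is thought to descend, use it to make surfactant lipid.

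All samples carried the label A549, a line from a human lung adenocarcinoma. In 3 libraries the labels give a knockout of RN7SK, the gene for the 7SK small nuclear RNA, and in the other 3 a wild-type control. The labels name no clone, guide, passage or separate culture, so p-values below measure only the spread between these libraries. An mRNA library kit was used on total RNA isolated with TRIzol. Total counts over the listed genes were 16018260 to 18488790 in the libraries labelled knockout and 18612303 to 19357144 in those labelled control.

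The labels could be checked only in part. RN7SK had no row in the tables, so the knockout itself could not be seen. CDKN2A and CDKN2B, cell cycle inhibitor genes that A549 cells are known to lack, had 0, 1 and 2 counts and 0, 1 and 0 counts in the libraries labelled knockout, against 963, 1005 and 923 counts and 216, 241 and 238 counts in those labelled control. The libraries labelled control therefore went against their cell line label, and a difference between cell lines and the loss of RN7SK cannot be told apart in any direction given here. Epithelial keratins were present throughout: KRT8 averaged 2965 ± 37.9 CPM in the libraries labelled knockout and 1544 ± 60.2 CPM in those labelled control (SD, n = 3 each; CPM, counts scaled to library size with trimmed mean of M values factors). Of the 12 markers listed for A549 cells and lung epithelium 6 were tested, of which 5 rose and 1 did not pass. The list summed to 8053 to 8178 CPM in the libraries labelled knockout and 3579 to 3789 CPM in those labelled control. Not all of its genes mark epithelium in general, so the sum does not measure epithelial identity. EPCAM, NKX2-1, SFTPB, SFTPC, SFTPD and AQP5 were at most 1 CPM in every library.

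As a group, the fatty acid and triglyceride genes were mostly higher in the libraries labelled knockout. Of the 39 tested, 28 rose, 7 fell and 4 did not pass edgeR's quasi-likelihood test at an adjusted p of 0.05 (Benjamini-Hochberg over 12929 genes). That comparison called most of what it tested: 85.0% of all tested genes passed, 42% higher and 43.0% lower, so a passed test alone says little. By size, 17 of the 39 genes were higher by 2-fold or more, or 43.6%, against 19.5% of all tested genes, and 2 were lower by 2-fold or more, or 5.13%, against 14.1%. The median log2 fold change, libraries labelled knockout over those labelled control, was 0.92 for the 39 genes, in a range of -1.65 to 4.62, and -0.007 for all tested genes. Because the genes were listed with earlier results of these data known, these shares and medians only describe the list. A difference of the set from all genes was not tested. In bulk RNA a change in how many cells carry a transcript and a change in its amount per cell cannot be told apart.

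**Figure D1:**
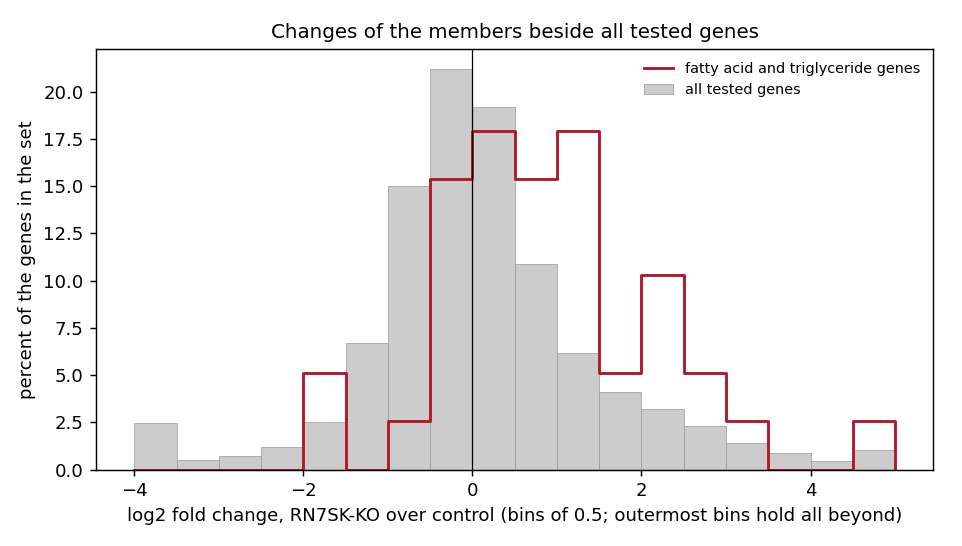
Histogram of log2 fold changes, libraries labelled knockout over libraries labelled control, in bins of 0.5, for the 39 tested fatty acid and triglyceride genes (red line) and all 12929 tested genes (grey bars), as percent of each set. The red line lies further right, with a median of 0.92 against -0.007.

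The share of the library taken by the 42 genes gives the size of the difference in transcripts. They held 1.42%, 1.45% and 1.44% of counts in the libraries labelled knockout and 0.454%, 0.424% and 0.467% in those labelled control, with no overlap between the groups. SCD, FADS2, ACLY, FASN and FADS1 made up most of it: 1.08%, 1.1% and 1.09% in the libraries labelled knockout, against 0.246%, 0.227% and 0.257% in those labelled control. These were the 5 highest genes of the set in the libraries labelled knockout. By mean FPKM, FADS2 ranked 8 in the set in those labelled control. Part of the gap in their summed share is therefore built in by the choice. Per gene length, the order of the leading genes differed as well. In the libraries labelled knockout SCD led at 912 ± 6.29 FPKM (fragments per kilobase of gene length, scaled to library size), followed by FADS2 at 461 ± 7.07, ACLY at 336 ± 6.96, FADS1 at 304 ± 1.15 and FASN at 165 ± 3.72 FPKM (SD, n = 3), each apart from its neighbour by more than their spread. In the libraries labelled control ACLY, at 140 ± 11.7 FPKM, and SCD, at 132 ± 7.06 FPKM, led and were not apart beyond their spread, and PLIN3, FASN, ELOVL1 and FADS1 lay between 60.8 and 72 FPKM (means, n = 3). Among all listed genes SCD ranked 45 by mean FPKM in the libraries labelled knockout and 404 in those labelled control.

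**Figure D2:**
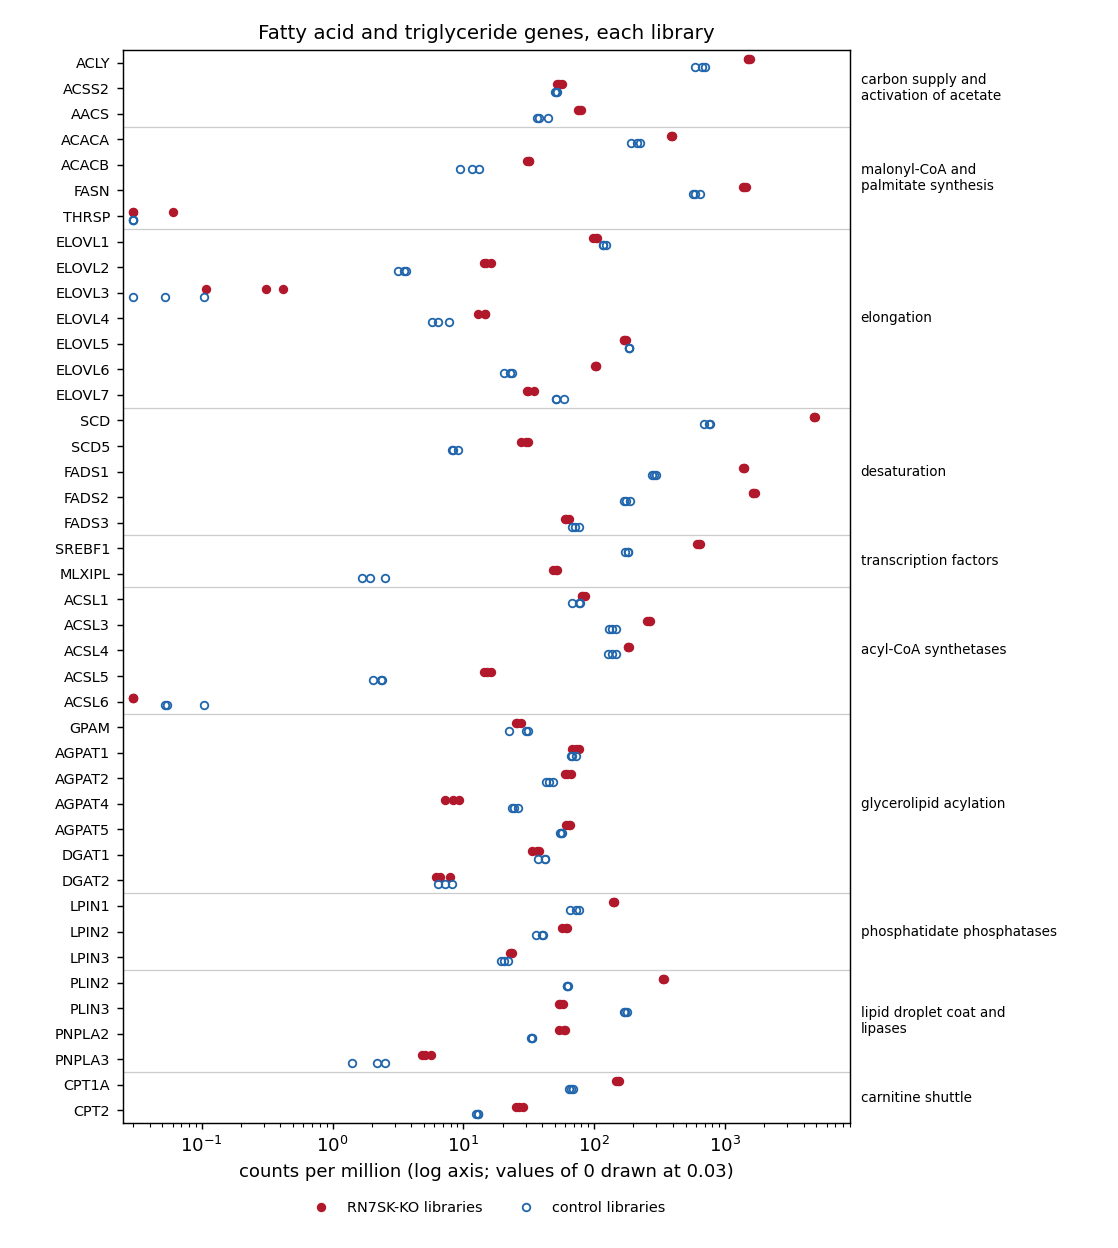
CPM (log axis) of the 42 genes, grouped by role, in each library labelled knockout (filled red) and each library labelled control (open blue). The groups stand apart for most desaturation genes and for SREBF1 and MLXIPL, and lie on top of each other for GPAM, AGPAT1, DGAT1 and DGAT2.

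Gene lengths could be recovered from the deposited counts and FPKM, and they were not the same in the 2 groups' tables. Among the 39 tested genes the length behind the libraries labelled knockout was 78.3% to 101% of that behind the libraries labelled control, with a median of 97.6%, against 98.8% for all tested genes. A different gene model can move which reads are counted. With the lengths as an offset in the same test, 29 genes were higher, 5 lower and 5 did not pass, and the log2 fold changes moved by -0.011 to 0.35. For 8 of the 39 genes the lengths were within 1%: FASN, MLXIPL, ACSL5, AGPAT2 and CPT1A of these rose, and ELOVL7, FADS3 and AGPAT4 fell. Of these 8, 62.5% were thus higher and 37.5% lower. The shares were 71.8% and 17.9% for the 39 genes, and 42% and 43.0% for all tested genes, whatever their lengths. Shares for only the 4042 tested genes with lengths within 1% were not worked out. The spans of 11 of the 42 genes overlap another protein-coding gene in RefSeq, and the strand setting of the counting is not given in the sources used here.

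Both transcription factor genes of the set were higher in the libraries labelled knockout. MLXIPL (chromosome 7, 73593202 to 73647907; all coordinates are RefSeq on GRCh38.p14) encodes ChREBP, which binds the promoters of glycolytic and lipogenic genes when sugar is plentiful. It had 48.7, 50.7 and 51.7 CPM in the libraries labelled knockout and 2.54, 1.94 and 1.67 CPM in those labelled control. Each library labelled knockout lay far above every library labelled control, with a log2 fold change of 4.62 ± 0.11 (SE), 24.5-fold, the largest among the 39 tested genes (edgeR adjusted p = 1.57e-28). SREBF1 (chromosome 17, 17811334 to 17836986) encodes SREBP-1, the membrane-held factor that is cut to release its DNA-binding part. Its counts came to 607, 643 and 634 CPM in the libraries labelled knockout, against 183, 172 and 183 CPM in those labelled control, with a log2 fold change of 1.81 ± 0.043 (edgeR adjusted p = 3.43e-28). These counts do not separate the SREBP-1a and SREBP-1c transcripts, and they do not show how much protein is cut.

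Because many members of the set are known as targets of these factors and of NF-Y and Sp1, their start windows, 250 bases before to 50 after a transcription start in RefSeq, were searched for a motif of each. Of the 42 genes, 36 had a window, 60 windows in all; FASN was not among them. The E-box CACGTG, the core of the site ChREBP binds in pairs, was in 4 of the 60 windows, or 6.67%, against 7.26% of 35116 RefSeq windows, and a form of the sterol regulatory element, TCACNCCAC, was in 3 windows, or 5%, against 1.13%. The CCAAT box, CCAAT, which NF-Y binds, was in 38.3% of the members' windows, against 34.6% of all windows. The GC box, GGGCGG, which Sp1 binds, was in 70% of the members' windows, against 45% of all windows. Both strands were searched, some genes have several windows, and a match is a run of letters and no measured site. The sterol regulatory element form was found for ACSL1, ACSL6 and PNPLA2. Of these, ACSL1 and PNPLA2 rose by under 2-fold on the counts, PNPLA2 by more than 2-fold with the length offset, and ACSL6 was not tested. The MLXIPL window is shown because that gene had the largest change; capitals mark GC boxes on either strand, and the start it covers lies inside the gene's span, chr7:73624473-73624772, minus strand, RefSeq GRCh38.p14, read 5′ to 3′ along the gene.
MLXIPL: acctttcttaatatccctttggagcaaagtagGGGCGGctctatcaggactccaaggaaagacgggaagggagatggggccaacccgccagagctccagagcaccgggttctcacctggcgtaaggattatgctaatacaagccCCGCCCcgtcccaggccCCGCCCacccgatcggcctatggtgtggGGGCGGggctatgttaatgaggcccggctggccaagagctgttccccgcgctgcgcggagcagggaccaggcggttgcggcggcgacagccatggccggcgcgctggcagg

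Of the 3 genes that supply activated carbon, 2 rose and 1 did not pass the test. ACLY, ATP citrate lyase, which cleaves citrate in the cytosol, had 1503, 1561 and 1492 CPM in the libraries labelled knockout and 664, 593 and 702 CPM in those labelled control. The groups did not overlap, with a log2 fold change of 1.22 ± 0.047 (edgeR adjusted p = 1.27e-19). AACS, which activates acetoacetate for lipid synthesis, averaged 77.3 ± 1.72 CPM in the libraries labelled knockout and 39.6 ± 4.2 CPM in those labelled control (SD, n = 3 each), a log2 fold change of 0.96 (edgeR adjusted p = 1.53e-15). ACSS2, which makes acetyl-CoA from acetate, was at 52.2, 53.9 and 56.4 CPM in the libraries labelled knockout, against 49.9, 51.8 and 51.2 CPM in those labelled control. The ranges do not overlap, but its log2 fold change of 0.086 did not pass the test (edgeR adjusted p = 0.163); on log2(FPKM + 0.1) it was 0.14 and passed (limma adjusted p = 0.0242).

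All 3 tested genes of malonyl-CoA and palmitate synthesis rose, with log2 fold changes of 0.90 to 1.47. FASN (chromosome 17, 82078338 to 82098236), fatty acid synthase, had 1379, 1443 and 1407 CPM in the libraries labelled knockout and 588, 566 and 648 CPM in those labelled control. That is a log2 fold change of 1.23 ± 0.044 (edgeR adjusted p = 1.17e-22), beside 1.22 for ACLY. ACACA, the cytosolic acetyl-CoA carboxylase that makes malonyl-CoA for synthesis, was at 394, 394 and 385 CPM in the libraries labelled knockout and at 213, 191 and 226 CPM in those labelled control, a log2 fold change of 0.90 ± 0.048 (edgeR adjusted p = 1.91e-17). ACACB encodes the carboxylase at the mitochondrial surface, whose malonyl-CoA is known to restrain fatty acid import for oxidation. It was much less abundant, 31.9, 30.9 and 32 CPM in the libraries labelled knockout, against 11.7, 9.42 and 13.2 CPM in those labelled control, with a log2 fold change of 1.47 ± 0.091 (edgeR adjusted p = 3.12e-16). Per gene length, the ratio of ACACA to ACACB FPKM was 11.1 ± 0.336 in the libraries labelled knockout and 16.9 ± 1.46 in those labelled control (SD, n = 3 each), with no overlap. THRSP, the Spot 14 protein of lipogenic tissue, had 0, 1 and 0 counts in the libraries labelled knockout and 0 counts in each labelled control.

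Elongation did not move in one direction: 3 of the 6 tested elongase genes rose and 3 fell. The 3 that rose did so by more than 2-fold, and none of the 3 that fell reached a fall of 2-fold. ELOVL6 (chromosome 4, 110045846 to 110199202), which extends palmitate to stearate, had 104, 102 and 103 CPM in the libraries labelled knockout and 23.4, 20.6 and 22.9 CPM in those labelled control, a log2 fold change of 2.2 ± 0.061 (edgeR adjusted p = 2.27e-26). ELOVL2, which extends long polyunsaturated chains, had 15, 16.2 and 14.5 CPM in the libraries labelled knockout, against 3.62, 3.14 and 3.5 CPM in those labelled control, with a log2 fold change of 2.15 ± 0.13 (edgeR adjusted p = 4.47e-17). ELOVL4, which makes very long chains in retina and skin, had 12.9, 14.6 and 14.6 CPM in the libraries labelled knockout and 6.43, 5.76 and 7.84 CPM in those labelled control, a log2 fold change of 1.07 ± 0.12 (edgeR adjusted p = 6.84e-10).

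The other 3 tested elongase genes fell. ELOVL5, which extends polyunsaturated chains one step before ELOVL2, averaged 172 ± 2.26 CPM in the libraries labelled knockout and 185 ± 1.38 CPM in those labelled control (SD, n = 3 each), a log2 fold change of -0.11 (edgeR adjusted p = 0.0186). That call was lost with the length offset, at a log2 fold change of -0.022 and an edgeR adjusted p of 0.628, and without knockout replicate 1 or 2 (edgeR adjusted p = 0.068 and 0.0662). ELOVL1, which extends saturated very long chains, averaged 102 ± 3.71 CPM in the libraries labelled knockout and 119 ± 3.84 CPM in those labelled control, a log2 fold change of -0.23. ELOVL7 fell furthest, to 34.7, 31.1 and 30.9 CPM in the libraries labelled knockout, against 51, 51.2 and 58.7 CPM in those labelled control, a log2 fold change of -0.73 ± 0.068 (edgeR adjusted p = 7.99e-12). The FPKM ratio of ELOVL6 to ELOVL5 was 0.333 ± 0.00551 in the libraries labelled knockout and 0.0683 ± 0.00409 in those labelled control (SD, n = 3 each), so ELOVL5 stayed the more abundant per gene length in all 6 libraries. ELOVL3 was close to absent, with 2, 7 and 5 counts in the libraries labelled knockout and 0, 2 and 1 in those labelled control.

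Of the 5 desaturase genes 4 rose and 1 fell, with a median log2 fold change of 2.28, the highest of the enzymatic steps. SCD (chromosome 10, 100347233 to 100364826), the stearoyl-CoA desaturase that makes oleate, had 4812, 4881 and 4777 CPM in the libraries labelled knockout, against 761, 694 and 763 CPM in those labelled control. It was 6.52-fold higher, a log2 fold change of 2.71 ± 0.041 (edgeR adjusted p = 1.56e-33). SCD5, a desaturase of the same kind known mainly from brain, had 31.4, 27.6 and 30 CPM in the libraries labelled knockout and 8.32, 8.17 and 9.1 CPM in those labelled control, a log2 fold change of 1.80 ± 0.090 (edgeR adjusted p = 4.42e-19). Both paralogs rose, SCD by more: the SCD to SCD5 FPKM ratio was 132 ± 9.81 in the libraries labelled knockout and 68.1 ± 3.23 in those labelled control (SD, n = 3 each).

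The fatty acid desaturase cluster on chromosome 11 held neighbours with different values. FADS2 (61816203 to 61867354), the delta-6 desaturase that begins polyunsaturated fatty acid synthesis, had 1655, 1703 and 1643 CPM in the libraries labelled knockout and 176, 168 and 188 CPM in those labelled control. The change was 9.41-fold, a log2 fold change of 3.23 ± 0.045 (edgeR adjusted p = 1.24e-34). FADS1 (61799627 to 61817003), the delta-5 desaturase that acts after it, had 1392, 1401 and 1376 CPM in the libraries labelled knockout, against 289, 276 and 296 CPM in those labelled control, a log2 fold change of 2.28 ± 0.041 (edgeR adjusted p = 1.21e-31). FADS3 (61873526 to 61892224), known to desaturate sphingoid bases, lay 6171 bases beyond FADS2 and went the other way, with 59.6, 64.1 and 60.7 CPM in the libraries labelled knockout and 67.8, 72 and 76.5 CPM in those labelled control. Its log2 fold change was -0.23 ± 0.057 (edgeR adjusted p = 0.000416). The FADS2 to FADS1 FPKM ratio was 1.52 ± 0.0179 in the libraries labelled knockout and 0.736 ± 0.0184 in those labelled control (SD, n = 3 each), so the order of the pair differed between the groups. FADS1 and FADS2 lie on opposite strands and share 801 bases, within which reads could be counted for either gene if strand was not used.

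**Figure D3:**
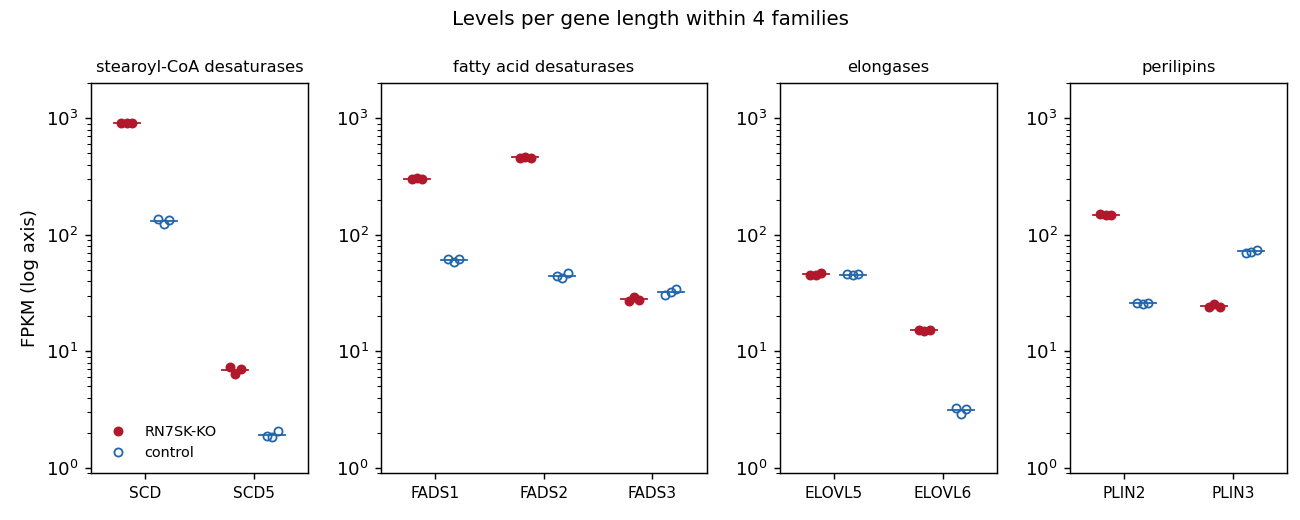
FPKM (log axis) of members of 4 gene families in each library labelled knockout (filled red) and each library labelled control (open blue), with lines at the means. FADS2 lies above FADS1 in the libraries labelled knockout and below it in those labelled control, and PLIN2 and PLIN3 trade places.

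The start windows of the desaturase genes with the largest count differences are printed to show how unlike their letters are, with capitals marking CCAAT boxes (CCAAT, or ATTGG on the opposite strand) and GC boxes (GGGCGG, or CCGCCC). None of the 3 held the exact letters searched for the E-box or the sterol regulatory element form. Other forms of these sites were not searched. SCD has a pair of CCAAT boxes, 229 and 186 bases before its start, and GC boxes 33 and 11 bases before it. FADS1 has only GC boxes, and the FADS2 window, for the downstream of its 2 starts, has 1 of each; the window of the other start held none of the motifs. The windows are chr10:100346983-100347282 (plus strand), chr11:61816154-61816453 (plus strand) and chr11:61816954-61817253 (minus strand), RefSeq GRCh38.p14, each read 5′ to 3′ along its gene.
SCD: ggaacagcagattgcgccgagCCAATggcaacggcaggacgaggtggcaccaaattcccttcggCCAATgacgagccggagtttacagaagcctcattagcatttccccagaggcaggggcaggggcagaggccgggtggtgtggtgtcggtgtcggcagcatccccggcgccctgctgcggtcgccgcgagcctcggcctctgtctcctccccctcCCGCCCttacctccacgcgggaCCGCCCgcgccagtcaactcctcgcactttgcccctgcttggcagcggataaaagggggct
FADS2: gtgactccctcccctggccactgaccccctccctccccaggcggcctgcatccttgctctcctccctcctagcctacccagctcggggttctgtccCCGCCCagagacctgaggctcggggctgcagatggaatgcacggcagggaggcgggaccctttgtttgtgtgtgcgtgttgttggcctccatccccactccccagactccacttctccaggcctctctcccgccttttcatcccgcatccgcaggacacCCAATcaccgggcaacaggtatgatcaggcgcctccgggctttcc
FADS1: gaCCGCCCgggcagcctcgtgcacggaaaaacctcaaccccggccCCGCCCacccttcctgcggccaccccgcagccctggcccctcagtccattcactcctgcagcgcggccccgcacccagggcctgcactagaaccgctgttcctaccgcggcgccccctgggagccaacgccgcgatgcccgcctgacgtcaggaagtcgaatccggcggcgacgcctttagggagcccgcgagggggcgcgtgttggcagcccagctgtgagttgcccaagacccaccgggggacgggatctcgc

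The acyl-CoA synthetases, which activate free fatty acids, were higher in all 4 tested members, by very different amounts. ACSL5, a mitochondrial and endoplasmic reticulum form known from intestine and liver, had 14.5, 16.3 and 15.1 CPM in the libraries labelled knockout and 2.05, 2.36 and 2.4 CPM in those labelled control. Its log2 fold change was 2.75 ± 0.14 (edgeR adjusted p = 5.16e-19); its span shares 3965 bases with ZDHHC6. ACSL3, which sits on growing lipid droplets, averaged 261 ± 7.4 CPM in the libraries labelled knockout and 137 ± 8.72 CPM in those labelled control (SD, n = 3 each), a log2 fold change of 0.92. ACSL4, which prefers arachidonate, averaged 183 ± 1.53 CPM in the libraries labelled knockout and 138 ± 8.99 CPM in those labelled control, a log2 fold change of 0.41. ACSL1 differed least, 82.2 ± 2.62 CPM in the libraries labelled knockout against 74 ± 5.7 CPM in those labelled control, a log2 fold change of 0.15 (edgeR adjusted p = 0.0133). The ACSL1 call was lost without knockout replicate 3 or control replicate 2 (edgeR adjusted p = 0.0797 and 0.074). ACSL6, known from brain, had 0 counts in each library labelled knockout and 1, 1 and 2 counts in those labelled control.

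The acyltransferases of the set, which build triglyceride, did not move in one direction. Of the 7 tested, 2 rose, 2 fell and 3 did not pass, none was higher by 2-fold, and the median log2 fold change was -0.072. Their summed level was 273 to 278 CPM in the libraries labelled knockout and 261 to 281 CPM in those labelled control, so the groups overlapped. DGAT1, which adds the last fatty acid to make triglyceride, had 36.4, 37.9 and 33.6 CPM in the libraries labelled knockout, against 42, 37.1 and 41.9 CPM in those labelled control. Single libraries overlapped, and the small fall, a log2 fold change of -0.16 ± 0.068 (edgeR adjusted p = 0.0255), was lost with the length offset at an adjusted p of 0.0564. It was also lost without knockout replicate 1 or 3 (edgeR adjusted p = 0.0525 and 0.157) and without control replicate 1 or 3 (0.096 and 0.0841). DGAT2, the unrelated enzyme for the same step, known to use newly made fatty acids, had 7.85, 6.21 and 6.64 CPM in the libraries labelled knockout and 7.24, 6.44 and 8.15 CPM in those labelled control, which overlapped, with a log2 fold change of -0.072 ± 0.14 (edgeR adjusted p = 0.623).

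At the first steps the same mixture was seen among the genes of the set. GPAT3 and GPAT4, glycerol-3-phosphate acyltransferases outside the set, were higher, with log2 fold changes of 1.35 and 0.95. Of the 12 tested glycerolipid acyltransferases outside it, 8 rose, or 66.7% against 42% of all tested genes, and 4 fell, or 33.3% against 43.0%. GPAM, the mitochondrial glycerol-3-phosphate acyltransferase, averaged 26.2 ± 1.05 CPM in the libraries labelled knockout and 27.9 ± 4.73 CPM in those labelled control (SD, n = 3 each), a log2 fold change of -0.088 that did not pass the test (edgeR adjusted p = 0.386). Without control replicate 2 it was -0.22 and passed (edgeR adjusted p = 0.00441). The AGPAT enzymes add the second fatty acid. AGPAT4, a form known from brain and muscle, fell to 8.34, 7.23 and 9.35 CPM in the libraries labelled knockout, against 24.4, 23.4 and 26.3 CPM in those labelled control, a log2 fold change of -1.57 ± 0.098 (edgeR adjusted p = 2.24e-16). AGPAT2, the form whose loss causes lipodystrophy, rose, averaging 62.8 ± 3.01 CPM in the libraries labelled knockout and 45.5 ± 2.68 CPM in those labelled control, a log2 fold change of 0.46. AGPAT5 also rose by little, at a log2 fold change of 0.18. AGPAT1 had a log2 fold change of 0.061 (edgeR adjusted p = 0.315) and passed with the length offset, at 0.21 (edgeR adjusted p = 0.000997). The AGPAT2 to AGPAT4 FPKM ratio was 39.7 ± 4.15 in the libraries labelled knockout and 9.67 ± 1.03 in those labelled control (SD, n = 3 each). The DGAT1 to DGAT2 FPKM ratio was 3.4 ± 0.49 in the libraries labelled knockout and 3.6 ± 0.24 in those labelled control, which overlapped.

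The lipins, phosphatidate phosphatases that supply diacylglycerol, were higher in all 3 members and by under 2-fold. LPIN1, a form induced by sterol depletion and fasting in other cells, averaged 142 ± 2.05 CPM in the libraries labelled knockout and 71.6 ± 6.17 CPM in those labelled control (SD, n = 3 each), a log2 fold change of 0.99 (edgeR adjusted p = 7.35e-18). LPIN2 had a log2 fold change of 0.64 and LPIN3 one of 0.17 (edgeR adjusted p = 0.0384 for LPIN3). The LPIN3 call was lost when any knockout replicate was left out (edgeR adjusted p = 0.0936, 0.0791 and 0.0661 without replicates 1, 2 and 3) and without control replicate 3 (0.137). LPIN1 lengths were 6869 bases behind the libraries labelled knockout and 8219 bases behind those labelled control, and with the offset its log2 fold change was 1.25.

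The coat proteins of lipid droplets moved in opposite directions. PLIN2 (chromosome 9, 19108388 to 19127492), the perilipin bound to droplets in most cells, had 342, 335 and 335 CPM in the libraries labelled knockout, against 62.5, 62.3 and 63.5 CPM in those labelled control, a log2 fold change of 2.43 ± 0.046 (edgeR adjusted p = 4.37e-31). PLIN3 (chromosome 19, 4838341 to 4867667), which moves between cytosol and new droplets, fell to 54.5, 57.6 and 53.8 CPM in the libraries labelled knockout, against 169, 173 and 178 CPM in those labelled control, a log2 fold change of -1.65 ± 0.051 (edgeR adjusted p = 4.22e-25). It was the lowest log2 fold change of the 39 tested genes. Within each library, the PLIN2 to PLIN3 FPKM ratio was 6.23, 5.75 and 6.16 in the libraries labelled knockout and 0.366, 0.356 and 0.352 in those labelled control. PLIN2 was thus the more abundant perilipin of the pair in the first group and PLIN3 in the second.

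Their start windows are shown as the pair with the most opposed values, with capitals for the E-box (CACGTG), the CCAAT box (ATTGG where it lies on the opposite strand) and the GC box. PLIN2 has an E-box 69 bases before its start and PLIN3 a CCAAT box 77 bases before its start, and both have a pair of GC boxes. The windows are chr9:19127443-19127742 and chr19:4867618-4867917, both minus strand, RefSeq GRCh38.p14, read 5′ to 3′ along the gene.
PLIN2: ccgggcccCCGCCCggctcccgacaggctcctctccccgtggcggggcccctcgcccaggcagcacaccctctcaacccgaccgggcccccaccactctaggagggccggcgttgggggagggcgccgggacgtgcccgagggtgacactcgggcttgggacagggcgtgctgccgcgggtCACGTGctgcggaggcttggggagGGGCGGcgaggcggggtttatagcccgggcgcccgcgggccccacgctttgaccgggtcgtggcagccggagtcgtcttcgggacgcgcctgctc
PLIN3: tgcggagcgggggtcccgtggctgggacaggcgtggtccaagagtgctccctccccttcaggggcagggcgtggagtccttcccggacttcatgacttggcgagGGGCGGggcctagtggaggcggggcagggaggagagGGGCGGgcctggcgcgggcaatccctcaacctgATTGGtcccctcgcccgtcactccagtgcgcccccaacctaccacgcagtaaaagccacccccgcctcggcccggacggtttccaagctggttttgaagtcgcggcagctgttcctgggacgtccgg

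Both lipase genes of the set rose. PNPLA2 encodes ATGL, which takes the first fatty acid off stored triglyceride, and it averaged 57.4 ± 3.13 CPM in the libraries labelled knockout and 33.3 ± 0.512 CPM in those labelled control (SD, n = 3 each), a log2 fold change of 0.79 (edgeR adjusted p = 1.16e-13). Its recovered length was 2093 bases behind the libraries labelled knockout and 2672 bases behind those labelled control, and with the offset its log2 fold change was 1.14, past 2-fold. PNPLA3, a droplet protein known as a target of SREBP-1 and ChREBP in liver, had 5.7, 4.84 and 5.11 CPM in the libraries labelled knockout and 1.4, 2.2 and 2.51 CPM in those labelled control, low in both, with a log2 fold change of 1.35 ± 0.20 (edgeR adjusted p = 1.24e-07).

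Both carnitine shuttle genes of the set were higher too. The shuttle carries fatty acids into mitochondria for oxidation and thus works against synthesis. CPT1A, the entry enzyme that malonyl-CoA inhibits, had 153, 148 and 156 CPM in the libraries labelled knockout and 66.8, 64.3 and 68.9 CPM in those labelled control, a log2 fold change of 1.19 ± 0.050 (edgeR adjusted p = 2.87e-21). CPT2, the enzyme on the inner membrane, had 26.6, 25.5 and 28.5 CPM in the libraries labelled knockout, against 12.9, 12.4 and 12.9 CPM in those labelled control, a log2 fold change of 1.08 ± 0.083 (edgeR adjusted p = 6.29e-14). Neither gene's groups overlapped, and both factors were close to those of ACLY and FASN. SLC25A20, the carrier of the shuttle and outside the set, was lower, with a log2 fold change of -0.24 (edgeR adjusted p = 0.0139). With the length offset it was -0.15 and did not pass (edgeR adjusted p = 0.119).

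**Figure D4:**
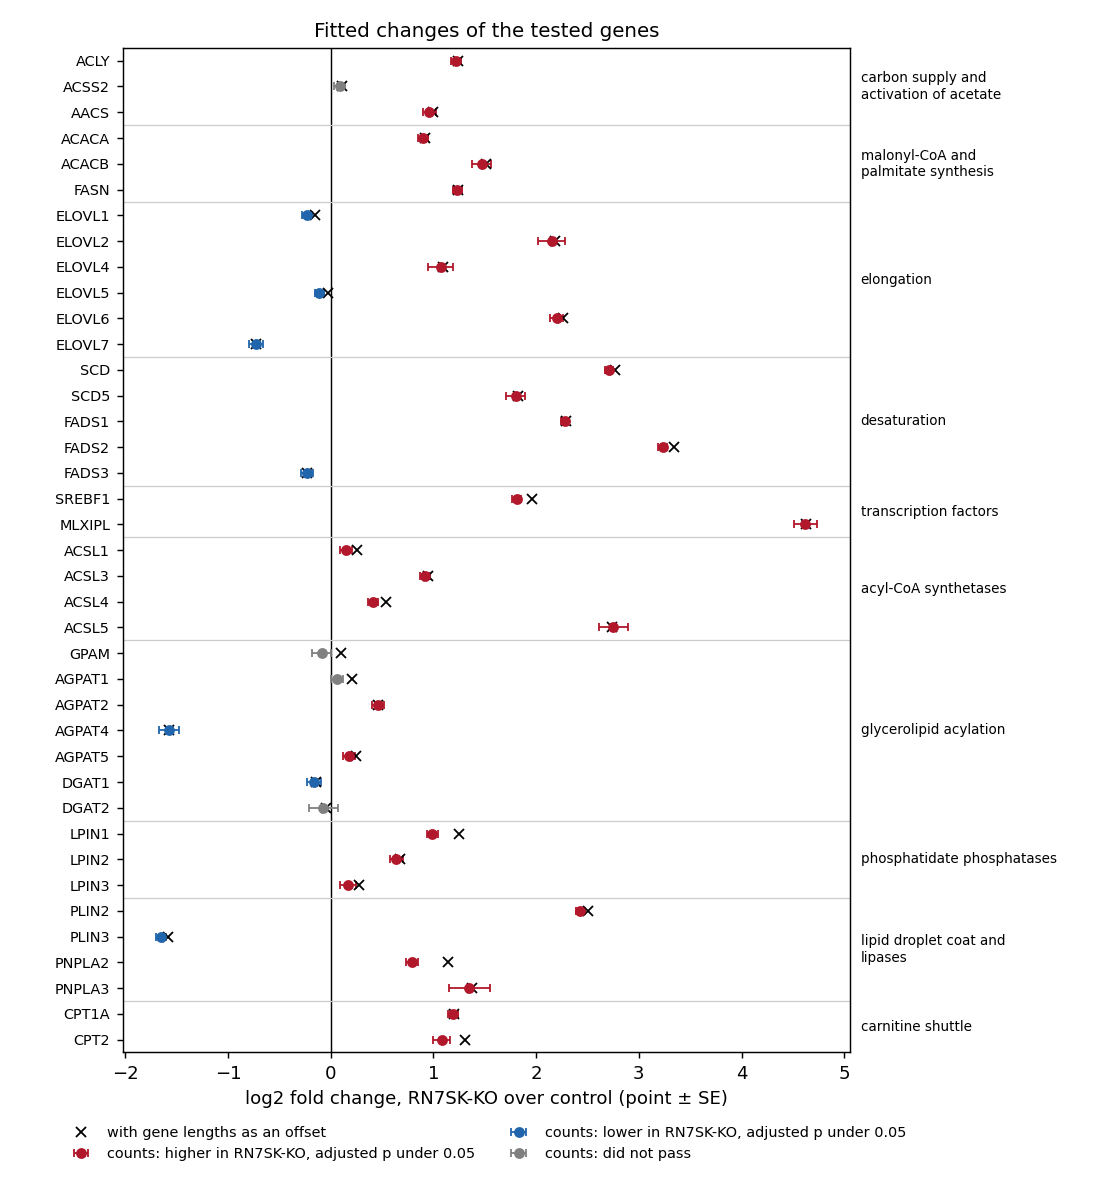
Log2 fold changes, libraries labelled knockout over libraries labelled control, of the 39 tested genes by role, as points with SE coloured by the test, and crosses for the fit with gene lengths as an offset. Values run from -1.65 for PLIN3 to 4.62 for MLXIPL, and the glycerolipid acylation genes scatter around 0.

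Other lipid genes were taken from 8 lists drawn up by function, 130 genes of which 111 were tested. Together 60 rose, or 54.1% against 42% of all tested genes, 36 fell, or 32.4% against 43.0%, and 15 did not pass, with a median log2 fold change of 0.20. By size, 19.8% were higher by 2-fold or more, against 19.5% of all tested genes, and 9.01% lower by 2-fold or more, against 14.1%. Genes at low levels, some with larger changes, are not named. Each gene named from these lists passed edgeR's test on the counts. Some of these calls were lost or turned with the length offset. Shares in brackets below are of a list's tested genes, beside 42% higher and 43.0% lower for all tested genes. Of the 10 genes that process or regulate SREBPs, 7 rose (70%), 1 fell (10%) and 2 did not pass, with a median of 0.85. INSIG1, which holds SREBPs in the endoplasmic reticulum, averaged 238 ± 2.61 CPM in the libraries labelled knockout and 76.8 ± 2.37 CPM in those labelled control, a log2 fold change of 1.63. MBTPS2, a protease that releases SREBPs, averaged 88.3 ± 2.03 CPM in the libraries labelled knockout and 29.8 ± 1.91 CPM in those labelled control, a log2 fold change of 1.57 (SD, n = 3 each).

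Of the 12 genes for citrate and NADPH supply, 8 rose (66.7%), 3 fell (25%) and 1 did not pass, with a median of 0.19. PGD, which makes NADPH in the pentose phosphate pathway, averaged 1436 ± 27.6 CPM in the libraries labelled knockout and 355 ± 11.1 CPM in those labelled control. IDH1, the cytosolic isocitrate dehydrogenase, averaged 420 ± 11.5 CPM in the libraries labelled knockout and 125 ± 3.57 CPM in those labelled control (SD, n = 3 each). The log2 fold changes of PGD and IDH1 were 2.02 and 1.75. IDH2 had 0.26 on the counts (edgeR adjusted p = 0.000382) and -0.28 with the length offset (edgeR adjusted p = 0.000158).

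Among 17 nuclear receptor and energy sensor genes 9 rose (52.9%) and 8 fell (47.1%). PPARGC1A, the coactivator of mitochondrial genes, averaged 68 ± 1.93 CPM in the libraries labelled knockout and 5.32 ± 0.519 CPM in those labelled control, a log2 fold change of 3.67. PRKAG2, a regulatory subunit of AMP-activated kinase, fell to 58.3 ± 2.12 CPM in the libraries labelled knockout, against 238 ± 7.14 CPM in those labelled control (-2.03). PPARA, the receptor that drives fatty acid oxidation in liver, fell by 2.30 on the log2 scale and by 0.96 with the length offset, its length being 4422 bases behind the libraries labelled knockout and 11243 bases behind those labelled control.

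Of 12 tested glycerolipid acyltransferases outside the set, 8 rose (66.7%) and 4 fell (33.3%), with a median of 0.29. By 2-fold or more, 8.33% were higher and 8.33% lower, against 19.5% and 14.1% of all tested genes. GPAT3 and GPAT4, the endoplasmic reticulum glycerol-3-phosphate acyltransferases, averaged 78 ± 3.13 and 179 ± 5.91 CPM in the libraries labelled knockout, against 30.6 ± 1.09 and 92.4 ± 2.73 CPM in those labelled control (SD, n = 3 each), with log2 fold changes of 1.35 and 0.95. LPCAT2, which remodels phosphatidylcholine, fell by 1.31 on the log2 scale. On the counts, fatty acid oxidation was spread around 0: of 25 genes, 8 rose (32%), 10 fell (40%) and 7 did not pass, with a median of 0.027. The list was not counted again with the length offset. DECR1 of this list had a log2 fold change of -0.48 on the counts (edgeR adjusted p = 1.81e-06). With the offset it was 0.52 (edgeR adjusted p = 4.85e-07). CPT1B, the muscle form of the entry enzyme, had a log2 fold change of 1.10, while ACOX3, a peroxisomal oxidase, had -1.10 and ACAA2, a mitochondrial thiolase, had -0.99 (-1.58 with the length offset).

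In the mitochondrial synthesis and elongation cycle list, 8 of 13 genes rose (61.5%), 3 fell (23.1%) and 2 did not pass. TECR, the reductase that ends each elongation cycle, had a log2 fold change of 0.91 and MECR, the mitochondrial reductase, -1.08; HACD1, a dehydratase of the cycle, had 0.93, which was 0.16 and did not pass with the length offset (edgeR adjusted p = 0.0701). Of 9 tested uptake and binding genes 6 rose (66.7%), 2 fell (22.2%) and 1 did not pass. Among them were SLC27A3 and SLC27A2, both fatty acid transport family members, at 1.87 and 1.12, and FABP5, a fatty acid binding protein, at -0.97. Of 13 other droplet and lipolysis genes 6 rose (46.2%), 5 fell (38.5%) and 2 did not pass. PNPLA4, a lipase with retinyl ester activity, and PLIN4, a perilipin of fat and muscle, had log2 fold changes of 2.71 and 2.37, and PNPLA6, a phospholipase, had -1.87.

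Markers of other cell types with much lipid synthesis or storage were scarce. The 6 listed adipocyte markers summed to 3.98 to 5.47 CPM in the libraries labelled knockout and 4.05 to 4.92 CPM in those labelled control, with ADIPOQ at 0 counts throughout, and 1 of the 2 tested fell. The 8 hepatocyte markers summed to 0.923 to 1.56 CPM in the libraries labelled knockout and 2.3 to 2.83 CPM in those labelled control, with APOB at 0 counts throughout, and the 1 tested fell. The 7 listed endothelial markers differed far more, at 3.93 to 4.86 CPM in the libraries labelled knockout and 162 to 175 CPM in those labelled control; 4 of them passed, all lower, with ESAM and ENG holding most of the sum and PECAM1 and VWF near 0. The 7 fibroblast markers, of which COL1A1 was tested and rose, summed to 12.5 to 14.5 CPM in the libraries labelled knockout and 3.56 to 4.61 CPM in those labelled control. The 6 macrophage markers, of which 2 of 3 tested rose, summed to 57.3 to 62.2 CPM in the libraries labelled knockout and 37 to 40.9 CPM in those labelled control, most of it CD68, with PTPRC and CSF1R near 0. The part of these lists in the lipid gene values was not tested.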

How the data were processed

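The authors deposited a table of raw counts by gene symbol and a table of FPKM, corrected for gene length and library size, for each library. HISAT2 2.2.1.0, Trimmomatic 0.36, FastQC 0.11.5 and the build GRCh38 are named in the submitters' processing notes; nothing on the counter, the annotation or the strand setting is given in the sources used here. The deposited counts were compared in R 4.3.3 with edgeR 4.0.16 (filterByExpr, trimmed mean of M values, glmQLFit robust, glmQLFTest), over all 12929 genes that passed the filter, with two-sided p-values, Benjamini-Hochberg adjustment and a threshold of 0.05. The test was first checked on simulated counts in which few genes changed, at a common dispersion. That check does not cover a comparison in which 85.0% of tested genes passed. Each SE was worked back from the test, as the size of the log2 fold change over the square root of its F statistic. Scaling factors were 0.989 to 1.02, the common biological coefficient of variation was 0.0443, and total counts set the precision. Replicates differed by more than counting noise in every pair of a group (chi-square over its degrees of freedom at least 1.73). The values were 1.73 to 2 between libraries labelled knockout and higher between those labelled control. There they were 2.91 for replicates 1 and 3, and 6.29 and 8.04 for the pairs with control replicate 2.

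Gene lengths were recovered by dividing counts by FPKM and came out whole, within 0.02 bases, for 99.99% of genes or more. FPKM was tested with limma 3.58.1 on log2(FPKM + 0.1) and log2(FPKM + 1) as an alternative, as were DESeq2 1.42.0, other scalings and filters, the length offset, a replicate block and leaving out each library. Promoter windows and coordinates are from RefSeq. Per-library values are given for genes of at least 5 CPM in either group with a log2 fold change of 1 or more in size and for ACLY, ACACA, FASN, SREBF1, DGAT1 and DGAT2; of each other lipid list, up to 3 genes with the largest change in size are named among those that passed the test with a mean of at least 5 CPM over all 6 libraries, which leaves out larger changes at lower levels, and some genes that this rule names are not reported here. SLC25A20, DECR1 and IDH2 are named beyond this rule, SLC25A20 for its place in the carnitine shuttle. DECR1 and IDH2 are named because their direction turned with the length offset. The members and lists were chosen with earlier results of these data known. Summaries and figures were made in Python 3.11.15.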

Additional observations from a re-analysis of the deposited data

How the results depend on the processing

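Of the 35 fatty acid and triglyceride genes that passed the test, 31 kept their direction and their call under each of the 16 alternatives that gave them a value, 26 of them higher in the libraries labelled knockout. The other 4 were ELOVL5, DGAT1, LPIN3 and ACSL1, all with small changes. Against 28 higher and 7 lower, leaving out each library gave 26 to 28 higher and 5 to 8 lower, 16 to 19 higher by 2-fold or more and 2 to 2 lower by 2-fold or more, with a median log2 fold change of 0.88 to 0.95. On log2(FPKM + 1), which shrinks low genes, 1 gene was lower by 2-fold or more in place of 2. The log2 fold change of ELOVL5 changed sign on log2(FPKM + 0.1) and log2(FPKM + 1), at 0.0048 and 0.0047, as did that for GPAM on the same scales and with the length offset, at 0.14, 0.11 and 0.099, and the log2 fold change of DGAT2 without control replicate 3, at 0.018, in a range of -0.18 to 0.018 over the libraries left out; the cause was not tested. None of these 6 values passed. GPAM passed without control replicate 2, at -0.22. The median of all tested genes was 0.057 with the length offset and 0.081 on log2(FPKM + 0.1). The shared replicate numbers showed no pairing in the values: same-numbered deviations correlated at 0.0159, -0.0386 and -0.011. Differently numbered ones correlated at -0.0662 to 0.0756. Whether libraries were handled in pairs cannot be read from this. With the replicate block, 28 genes were higher, 7 lower, 17 higher and 2 lower by 2-fold or more, with a median of 0.93. Depth limits THRSP, ELOVL3 and ACSL6, and PNPLA3, at low level, had the largest SE of the tested genes of the set, 0.20.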
